A study of Mus musculus with 7 samples.

Results

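The 33 genes described here carry glucose into the cell, run glycolysis from hexokinase to pyruvate, exchange pyruvate with lactate, set the pace of phosphofructokinase and link glycolysis to glycerol phosphate. They were taken by symbol from a table of 13788 genes, and each of the 33 symbols matched exactly 1 row. RNA was sequenced from total hearts of C57BL/6 newborns at P0 (postnatal day 0). The 4 edKO hearts (replicates 5, 6, 15 and 33) lacked Rxra and Rxrb in cardiomyocytes only, and the 3 wild-type (WT) hearts (replicates 1, 2 and 28) served as controls. The labels name neither the deletion driver, the deleted exons, the litter nor the sex. Total hearts also hold endothelial cells, fibroblasts, blood and other cells that keep both receptor genes. Rxra stood at 66.1 ± 6.74 in edKO and 61.6 ± 1.99 in WT hearts (normalised reads per 1000000, mean ± SD, n = 4 and n = 3), with overlap. Rxrb stood at 38.9 ± 4.00 in edKO and 48.2 ± 3.18 in WT hearts, every edKO heart below every WT heart, as for 9.04% of all genes. Neither passed the test (limma adjusted p = 0.632 and 0.139), so whole-gene values do not settle the genotype. The reads recovered per library numbered 12108464 to 24912403. A normalised read count is the count scaled to 1000000 reads of effective library size, and 3 reads corresponded to 0.122 to 0.262 on that scale, for counting error only.

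Glucose enters heart cells through facilitative transporters, of which GLUT1 (Slc2a1) sits at the surface of many cell types and is abundant in the fetal heart, while GLUT4 (Slc2a4) is the insulin-responsive transporter of mature muscle. Hexokinase traps the sugar, phosphofructokinase is the committed step, and the later enzymes yield ATP and pyruvate, which lactate dehydrogenase interconverts with lactate. The fetal heart depends largely on glucose and lactate, and after birth fatty acid oxidation takes over as the main source of energy. Retinoid X receptors act as partners of other nuclear receptors, among them the PPARs, which bind direct repeats of AGGTCA.

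Of the 33 genes, 1 rose in edKO hearts (Slc2a1), 3 fell (Aldoc, Slc16a3 and Pfkl) and 29 did not pass the test (limma, adjusted p under 0.05). Over all 13788 genes 4.21% passed it, 2.08% higher and 2.13% lower, so that the share called among the 33 genes was above that of all genes, on a count of 4. The members were chosen with earlier results of these data known, so this comparison of shares is not independent of the data. Of the 4, Slc2a1 alone was called in all 7 fits that left out 1 heart. Other tools called 3 (edgeR, 3.87% of all genes), 6 (DESeq2, 7.63%) and 2 (voom, 3.11%) of the 33. At an unadjusted p under 0.05 by limma the genes numbered 9 of 33, against 19.2% of all genes. The groups did not overlap for 11 of the 33 (17.4% of all genes): every edKO heart lay above every WT heart for 4 (8.41% of all genes) and below for 7 (9.04% of all genes). The median difference of the 33 genes was 0.01 on the log2 scale, beside -0.0036 over all genes, and their median absolute difference was 0.17, beside 0.16. Outside the transporter Slc2a1, no difference exceeded 0.67 in size.

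**Figure D1:**
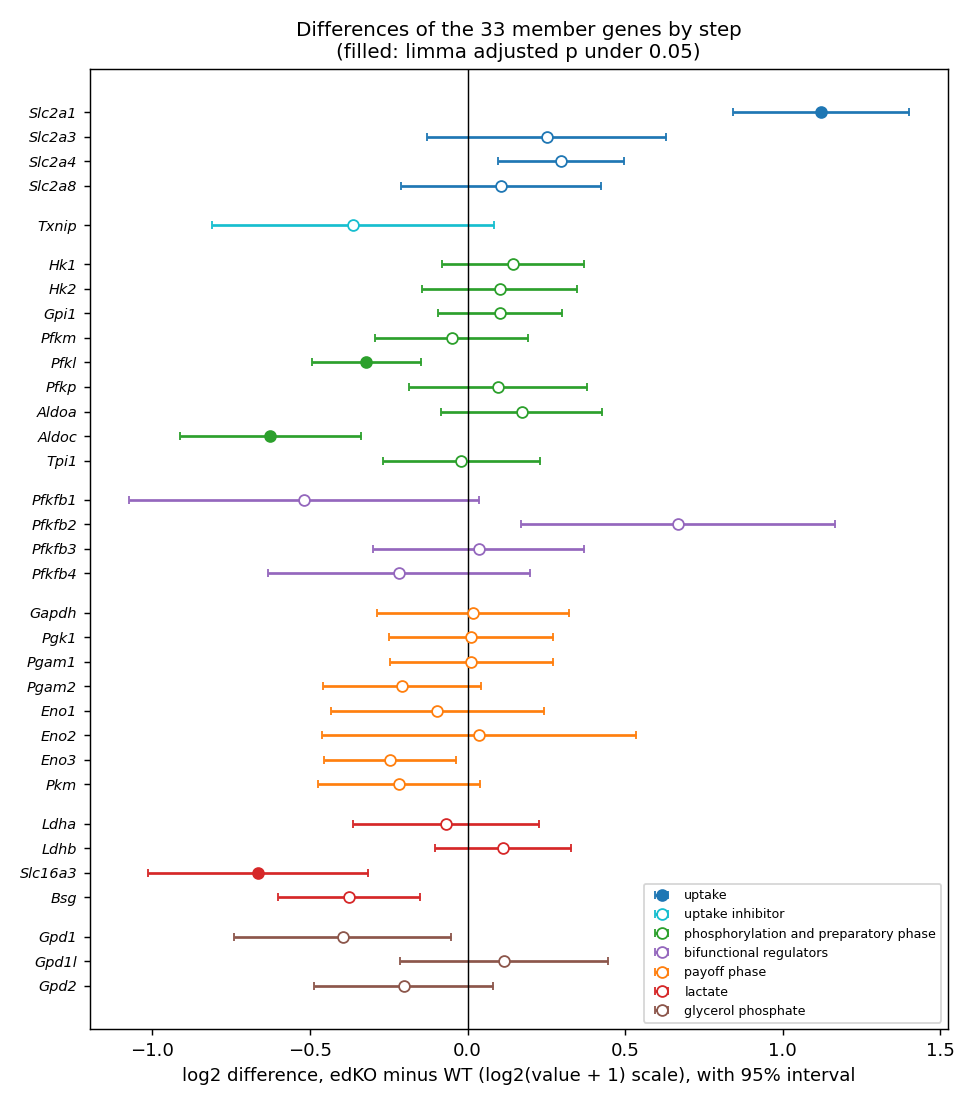
Difference of each of the 33 genes, edKO minus WT, on the log2(value + 1) scale (x axis), with its 95% interval from limma. Genes run down the page in blocks by step, and filled points passed an adjusted p of 0.05. Slc2a1 stands alone to the right at 1.12, Aldoc, Slc16a3 and Pfkl are the filled points to the left, and the intervals of most enzymes of the later steps include 0.

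Stretches before 1 RefSeq start each are given for Slc2a1, the member that rose, and for Slc16a3, a member that fell. They are shown because both hold the core ACGTG, which hypoxia-inducible factors can bind. Neither stretch holds CACGTG, the E-box. They are RefSeq sequences on GRCm38.p6, plus strand, chr4:119108495-119108713 for Slc2a1 and chr11:120948817-120949057 for Slc16a3, read 5′ to 3′ and ended at the last ACGTG. Capitals mark ACGTG. The starts are not the outermost ones: the Slc16a3 stretch lies inside the GENCODE span of the gene, and the ACGTG of Slc2a1 spans the GENCODE start of the gene. The bases after these starts occur in 1 of 5 GENCODE transcripts of Slc2a1 and in 2 of 8 of Slc16a3.
Slc2a1: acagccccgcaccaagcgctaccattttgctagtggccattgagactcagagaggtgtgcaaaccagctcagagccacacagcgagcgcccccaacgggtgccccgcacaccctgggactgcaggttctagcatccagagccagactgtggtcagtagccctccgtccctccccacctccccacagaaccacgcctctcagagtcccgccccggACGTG
Slc16a3: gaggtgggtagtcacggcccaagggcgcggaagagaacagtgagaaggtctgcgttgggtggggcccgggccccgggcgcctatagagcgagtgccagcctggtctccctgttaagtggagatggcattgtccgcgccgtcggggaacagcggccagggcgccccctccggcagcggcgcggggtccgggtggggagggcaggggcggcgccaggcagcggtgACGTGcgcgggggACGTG

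Slc2a1 holds 1 ACGTG, beginning at position -36 from that RefSeq start, and Slc16a3 holds 2, at -27 and -14. Windows of 250 bases before the annotated starts were available for 29 of the 33 genes, with 47 starts in all. ACGTG, on either strand and including its copies inside CACGTG, occurred in 17 of these 47 windows (36.2%), against 16.6% of all 32851 windows. Genes with it included Aldoa, Hk2, Ldha, Pgam1, Pgk1 and Pkm, none of which passed the test. The windows of Pfkl (1) and Aldoc (2) held 0 copies. The hexamer AGGTCA occurred in 8 of the 47 windows (17.02%, against 14.02% of all), and its direct repeat with 1 base between the copies in 0 of the 47 (11 of all 32851). These matches describe the letters in the windows, not binding.

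Slc2a1 (ENSMUSG00000028645, chromosome 4, 119108711 to 119137983 on GRCm38), the gene of GLUT1, had 60.8, 44.1, 58.8 and 54.2 normalised reads per 1000000 in edKO replicates 5, 6, 15 and 33, against 26.9, 24.7 and 21.7 in WT replicates 1, 2 and 28. The lowest edKO heart, replicate 6, still lay well above the highest WT heart. The difference was 1.12 on the log2(value + 1) scale, with a 95% interval of 0.84 to 1.399, or 2.17-fold (limma adjusted p = 0.000638), and it stood in all 7 fits that left out 1 heart (adjusted p 0.000401 to 0.00633). In bulk tissue a change in transcript per cell and a change in the number of cells that carry it cannot be told apart. GLUT1 is also a transporter of red cells and endothelium, so their markers stand beside it. The summed level of 9 measured erythroid markers, nearly all of it globin transcripts, ran from 27787 to 53870 in edKO hearts. In WT hearts it ran from 24115 to 40458, so that the groups overlapped. Of 10 endothelial markers 0 passed by limma, and their sums ran from 1314 to 1570 in edKO hearts and from 1187 to 1508 in WT hearts. The part of either cell type in the Slc2a1 difference was not tested.

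Slc2a4 (chromosome 11, 69942539 to 69948188), the gene of GLUT4, had 102, 111, 94.4 and 108 in edKO replicates 5, 6, 15 and 33, against 86.6, 88.5 and 77.5 in WT replicates 1, 2 and 28. Every edKO heart was above every WT heart, yet the difference of 0.30 (95% interval 0.10 to 0.50) did not pass the test (limma adjusted p = 0.0986). Slc2a3, the high-affinity GLUT3 best known from neurons, stood at 7.36 ± 0.519 in edKO and 6.13 ± 1.62 in WT hearts, and Slc2a8, the intracellular GLUT8, at 17.9 ± 2.44 in edKO and 16.5 ± 2.13 in WT hearts. Both overlapped between groups (limma adjusted p = 0.459 and 0.731).

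Set per kilobase of principal transcript, the order of transporter levels in edKO hearts was Slc2a4 (41.1 ± 2.84 in edKO and 33.4 ± 2.33 in WT hearts), Slc2a1 (16.7 ± 2.28 in edKO and 7.49 ± 0.792 in WT hearts), Slc2a8 (8.48 ± 1.16 in edKO and 7.83 ± 1.01 in WT hearts) and Slc2a3 (1.86 ± 0.131 in edKO and 1.55 ± 0.408 in WT hearts). In WT hearts Slc2a1 and Slc2a8 did not differ beyond their spread. The summed level of the 4 transporters per kilobase was 68.1 ± 1.52 in edKO and 50.2 ± 2.35 in WT hearts, without overlap. Slc2a1 made up 31.6, 23.6, 32.5 and 28.01% of the sum of Slc2a1 and Slc2a4 per kilobase in edKO replicates 5, 6, 15 and 33, against 19.4, 17.7 and 17.8% in WT replicates 1, 2 and 28. Slc2a4 was the larger of the pair in all 7 hearts. The log2 ratio of Slc2a1 to Slc2a4 averaged -0.92 ± 0.287 in edKO and -1.75 ± 0.083 in WT hearts, a difference of 0.82, with no overlap. The exact permutation test over all 35 assignments (2-sided, absolute difference of means) gave p = 0.0571, where the smallest possible was 0.0286.

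**Figure D2:**
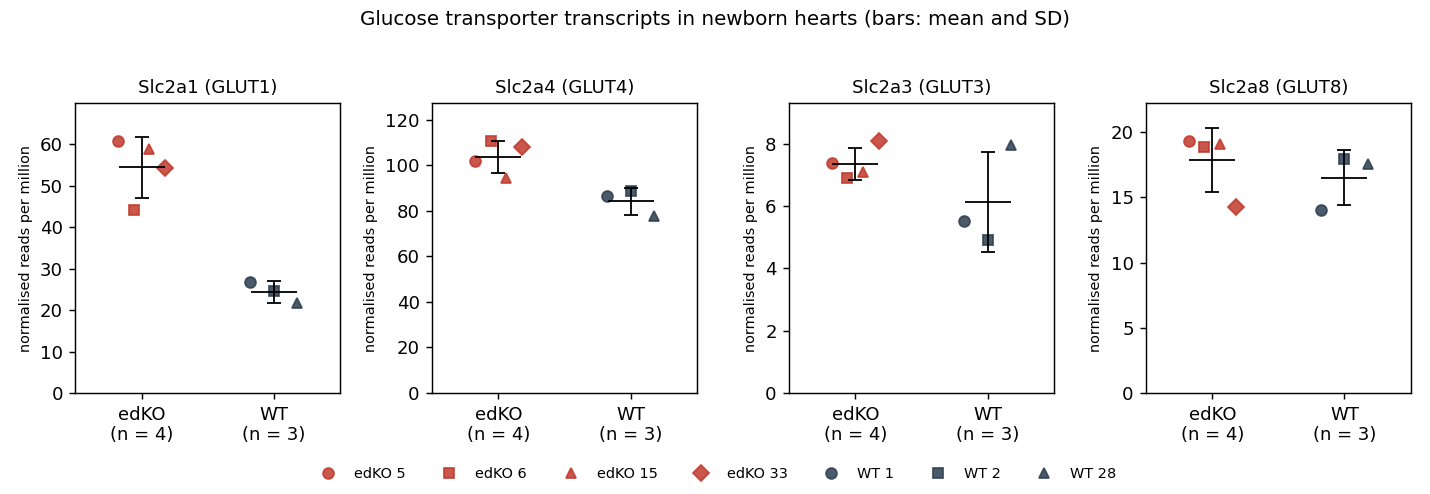
Normalised reads per 1000000 of the 4 glucose transporter genes in each heart, edKO on the left and WT on the right of each panel, with the mean and SD as bars and a symbol for each library. Slc2a1 lies between 44.1 and 60.8 in edKO hearts and below 27 in WT hearts, Slc2a4 is separated by a narrower gap, and Slc2a3 and Slc2a8 overlap.

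Txnip, an arrestin-domain protein that restrains glucose uptake and is itself induced by glucose, had 805, 920, 1004 and 498 in edKO replicates 5, 6, 15 and 33, against 903, 1057 and 1062 in WT replicates 1, 2 and 28. The groups overlapped, edKO replicate 33 lay far below the other hearts, and the difference of -0.36 (95% interval -0.81 to 0.08) did not pass (limma adjusted p = 0.361). Of the 4 Arrdc genes, its relatives, 0 passed by limma (1 at an unadjusted p under 0.05). Arrdc3, the most abundant of these, stood at 78.2 ± 16.4 in edKO and 60.8 ± 5.71 in WT hearts and was called without edKO replicate 33 (adjusted p = 0.0175). Arrdc4, also induced by glucose, stood at 31.6 ± 7.88 in edKO and 35.2 ± 3.43 in WT hearts.

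Neither hexokinase passed the test. Hk1, the isoform prominent in fetal heart, had 311, 316, 349 and 284 in edKO replicates 5, 6, 15 and 33, against 264, 323 and 269 in WT replicates 1, 2 and 28. Hk2, the insulin-regulated muscle isoform, had 73.3, 61.3, 79.5 and 61.2 in the same edKO hearts, against 61.8, 68.7 and 60.8 in WT hearts. Both genes overlapped between groups, with differences of 0.14 (95% interval -0.08 to 0.37) and 0.10 (-0.14 to 0.35). Hk1 made up 86.8 ± 0.954% of the pair per kilobase in edKO and 86.5 ± 0.557% in WT hearts. The log2 ratio of Hk1 to Hk2 was 2.18 ± 0.120 in edKO and 2.14 ± 0.070 in WT hearts (exact permutation p = 0.686).

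At the phosphofructokinase step the liver-type subunit fell and the muscle subunit did not pass. Pfkl (chromosome 10, 77986947 to 78010083) had 88.3, 84.8, 88.1 and 91.2 in edKO replicates 5, 6, 15 and 33, against 107, 116 and 108 in WT replicates 1, 2 and 28. The 4 edKO hearts lay within a narrow band below all WT hearts, and the difference was -0.32 (95% interval -0.49 to -0.15, limma adjusted p = 0.0448). Pfkm, the muscle subunit and the main one here, stood at 431 ± 53.3 in edKO and 445 ± 28.9 in WT hearts, and Pfkp, the platelet-type subunit, at 116 ± 19.5 in edKO and 107 ± 5.24 in WT hearts (limma adjusted p = 0.840 and 0.725). Per kilobase Pfkl gave 10.8 to 11.7% of the 3 subunits in edKO replicates 5, 6 and 15 and 13.8% in edKO replicate 33, against 14.5, 14.0 and 13.8% in WT replicates 1, 2 and 28, so that edKO replicate 33 came next to the WT hearts. With the union of exons as length the groups overlapped. Pfkl was no longer called without any 1 of the WT hearts or edKO replicate 5, 6 or 15 (adjusted p up to 0.200), and was not called by edgeR or voom (adjusted p = 0.0537 and 0.0593), while DESeq2 called it (adjusted p = 0.00713). Xist, the RNA of the inactive X chromosome, differed within both groups, at 441, 179, 0.0898 and 1.93 in edKO replicates 5, 6, 15 and 33, against 167, 0.0344 and 0.327 in WT replicates 1, 2 and 28. With Xist as a covariate Pfkl was not called (limma adjusted p = 0.103), at a difference of -0.31. Calls over all genes also fell in that fit, from 580 to 364.

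Among the regulators that make or remove fructose 2,6-bisphosphate, the activator of phosphofructokinase, 0 of 4 passed by limma (1 at an unadjusted p under 0.05, 1 by DESeq2). Pfkfb2, the isoform of heart, had 25.7, 12.9, 20.9 and 13.3 in edKO replicates 5, 6, 15 and 33, against 9.05, 12.6 and 10.5 in WT replicates 1, 2 and 28. The edKO hearts fell into a higher pair, replicates 5 and 15, and a pair just above the highest WT heart, and the difference of 0.67 (95% interval 0.17 to 1.16) did not pass (limma adjusted p = 0.132). DESeq2 called it (adjusted p = 0.0404). Pfkfb1, the isoform of liver and skeletal muscle, stood at 1.89 ± 0.592 in edKO and 3.23 ± 1.47 in WT hearts, Pfkfb3, the inducible isoform, at 9.02 ± 0.993 in edKO and 8.81 ± 1.34 in WT hearts, and Pfkfb4 at 3.49 ± 0.750 in edKO and 4.17 ± 0.373 in WT hearts. These low genes rested on 20 to 92 reads per heart for Pfkfb1 and Pfkfb4.

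Of the 2 aldolases, 1 fell and 1 did not pass. Aldoc (chromosome 11, 78322968 to 78327781), the brain-type aldolase, had 8.16, 7.93, 8.77 and 9.18 in edKO replicates 5, 6, 15 and 33, against 13.3, 12.8 and 15.02 in WT replicates 1, 2 and 28. All edKO hearts lay below all WT hearts, with a difference of -0.63 (95% interval -0.91 to -0.34, limma adjusted p = 0.0226). Aldoa, the muscle aldolase and per kilobase the most abundant of the 33 genes, stood at 2079 ± 115 in edKO and 1849 ± 169 in WT hearts, with every edKO heart above every WT heart and no call (difference 0.17, 95% interval -0.08 to 0.43, adjusted p = 0.454). Per kilobase Aldoc was 0.222 ± 0.00772% of the pair in edKO and 0.404 ± 0.0738% in WT hearts, so its fall concerned a trace of the aldolase transcripts. Because Aldoc marks neurons and glia, 5 measured markers of those cells were read beside it: 1 was lower (Uchl1, 31.5 in edKO and 47.5 in WT hearts), and their sum ran from 37.1 to 41.2 in edKO hearts and from 54.4 to 61.8 in WT hearts, without overlap. Eno2, the neuronal enolase, stood at 3.19 ± 0.917 in edKO and 3.09 ± 0.899 in WT hearts. The part of such cells in the Aldoc difference was not tested. Aldoc was no longer called without any 1 of the WT hearts or edKO replicate 5 or 15 (adjusted p up to 0.116), and was called by edgeR, DESeq2 and voom (adjusted p = 0.0252, 0.00214 and 0.0299). With Xist as a covariate it was not called (limma adjusted p = 0.0555), at a difference of -0.60.

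The remaining enzymes of the upper pathway did not pass. Gpi1, glucose 6-phosphate isomerase, stood at 852 ± 24.6 in edKO and 793 ± 38.4 in WT hearts (difference 0.10, 95% interval -0.09 to 0.30). Tpi1, triose phosphate isomerase, stood at 771 ± 75.4 in edKO and 783 ± 88.8 in WT hearts (difference -0.02, 95% interval -0.27 to 0.23).

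In the ATP-yielding payoff phase 0 of 8 genes passed by limma, and 1 did at an unadjusted p under 0.05. EdgeR, DESeq2 and voom also called 0 of the 8. Gapdh, which opens this phase, averaged 661 ± 60.9 in edKO and 661 ± 143 in WT hearts, Pgk1 755 ± 98.0 in edKO and 746 ± 58.4 in WT hearts, and Pgam1 157 ± 15.1 in edKO and 157 ± 24.97 in WT hearts, and the 3 intervals reached from -0.29 at the lowest to 0.32 at the highest. Eno3, the muscle enolase, had 785, 789, 798 and 863 in edKO replicates 5, 6, 15 and 33, against 999, 995 and 886 in WT replicates 1, 2 and 28, and the groups did not overlap (difference -0.25, 95% interval -0.45 to -0.04, limma adjusted p = 0.187). Pgam2, the muscle mutase, stood at 442 ± 43.3 in edKO and 511 ± 69.8 in WT hearts, and Pkm, pyruvate kinase, at 972 ± 117 in edKO and 1127 ± 87.5 in WT hearts (adjusted p = 0.354 and 0.341). Eno1, the widespread enolase, stood at 507 ± 107 in edKO and 535 ± 57.6 in WT hearts.

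Per kilobase the muscle isoforms were the larger ones in both genotypes. Pgam2 made up 85.6 ± 0.884% of the mutases in edKO and 87.4 ± 0.268% in WT hearts. Pgam1 held 15.6, 13.6, 14.5 and 14.0% in edKO replicates 5, 6, 15 and 33, against 12.9, 12.7 and 12.3% in WT replicates 1, 2 and 28, a small gap with no overlap. Eno3 gave 67.6 ± 3.96% of the enolases in edKO and 69.9 ± 0.882% in WT hearts. Of the 61-nt transcript windows of Pgk1, Pgam1, Eno1 and Gapdh, 53.4, 35.6, 24.6 and 23.9% are shared with another gene, largely pseudogenes and near copies, so part of their reads could be assigned to another gene. The same limit holds for Pkm (22.0%), Pfkfb2 (16.8%), Ldhb (16.2%), Txnip (14.9%) and Gpi1 (13.3%). No other member shared more than 8.89% of its windows.

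Of 6 marker genes of skeletal muscle measured, 1 was lower (Tnni2, 2.58 in edKO and 7.16 in WT hearts), and the median difference of the 6 was -1.04. Ckm, which heart muscle also expresses, made up most of their sum (2454 in edKO and 2500 in WT hearts) and hardly differed. The differences of Acta1, Tnnt3, Mylpf and Myh8 were -0.88, -0.91, -1.17 and -1.43, and none of these 4 passed (limma adjusted p 0.121 to 0.176). The part of such muscle in the values of Eno3 and Pgam2 was not tested.

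**Figure D3:**
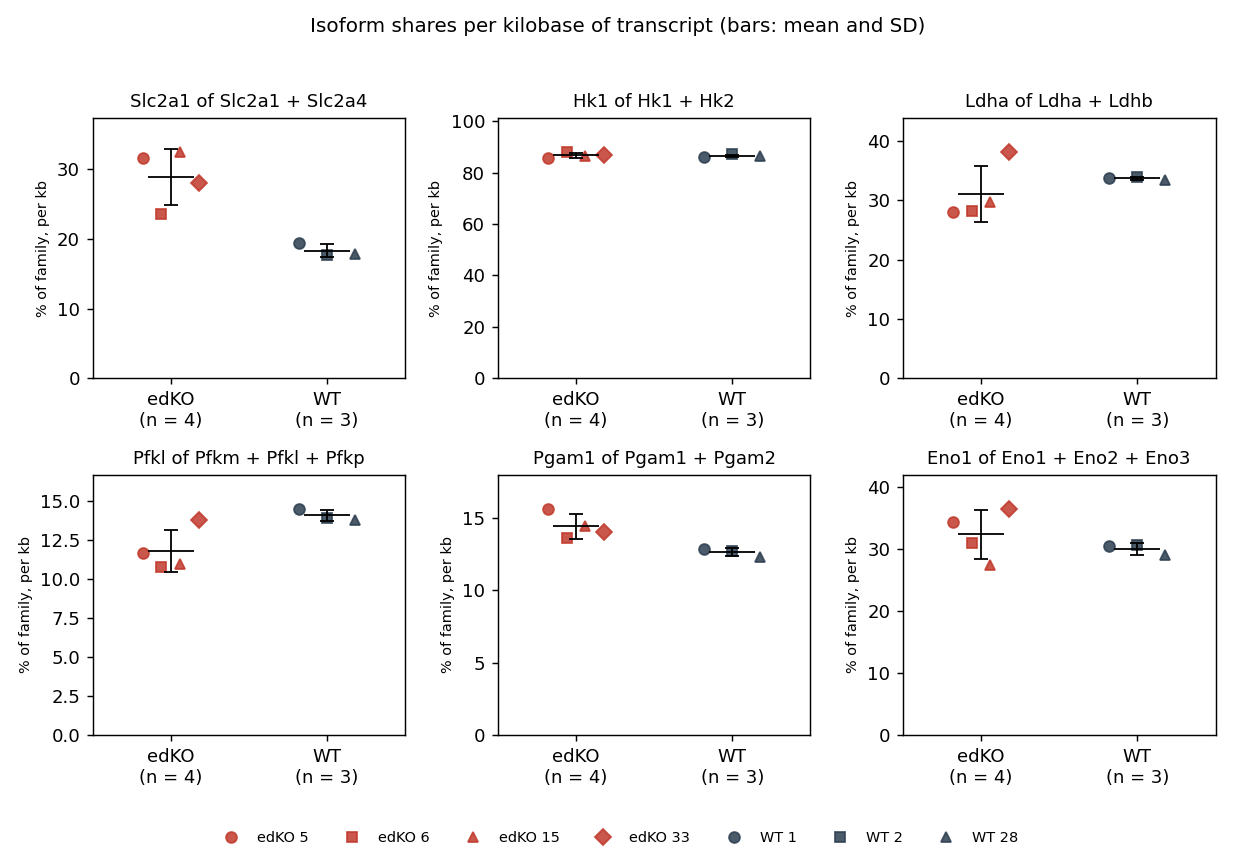
Share of 1 isoform in its family, in percent of the summed normalised reads per kilobase of principal transcript, for each heart, edKO on the left and WT on the right of each panel, with mean and SD. The share of Slc2a1 is higher in every edKO heart, the Hk1 share overlaps between groups, and edKO replicate 33 stands highest for Ldha, Pfkl and Eno1 among the edKO hearts.

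At the lactate step the dehydrogenase subunits did not pass, while the export carrier fell. Ldha, the subunit that favours lactate formation, had 620, 634, 669 and 902 in edKO replicates 5, 6, 15 and 33, against 772, 757 and 672 in WT replicates 1, 2 and 28. Ldhb, the heart-type subunit that favours lactate use, had 1174, 1190, 1167 and 1081 in the same edKO hearts, against 1122, 1087 and 991 in WT hearts. Both overlapped, with differences of -0.07 (95% interval -0.36 to 0.23) and 0.11 (-0.10 to 0.33). Ldha made up 28.1, 28.2, 29.7 and 38.1% of the pair per kilobase in edKO replicates 5, 6, 15 and 33, against 33.7, 34.0 and 33.4% in WT replicates 1, 2 and 28. Thus 3 edKO hearts lay below the tight WT band and replicate 33 above it. The log2 ratio of Ldha to Ldhb averaged -0.72 ± 0.312 in edKO and -0.54 ± 0.0189 in WT hearts (exact permutation p = 0.400), and the difference of -0.18 became -0.34 without edKO replicate 33.

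Slc16a3 (chromosome 11, 120948480 to 120960868) encodes MCT4, the carrier through which glycolytic cells release lactate. It had 10.9, 9.68, 9.49 and 14.1 in edKO replicates 5, 6, 15 and 33, against 20.5, 17.6 and 15.7 in WT replicates 1, 2 and 28. All edKO hearts were below all WT hearts, replicate 33 being the nearest, and the difference was -0.66 (95% interval -1.01 to -0.32, limma adjusted p = 0.0414). Bsg, basigin, the chaperone that brings MCT1 and MCT4 to the membrane, had 523, 544, 491 and 579 in edKO replicates 5, 6, 15 and 33, against 770, 690 and 625 in WT replicates 1, 2 and 28, again with no overlap, and did not pass (difference -0.38, 95% interval -0.60 to -0.15, limma adjusted p = 0.0647). It was called by DESeq2 (adjusted p = 0.00805) and without edKO replicate 33 (limma adjusted p = 0.0312). Slc16a1, the gene of MCT1, which takes lactate up in heart muscle, stood at 165 ± 11.5 in edKO and 147 ± 13.6 in WT hearts (adjusted p = 0.362). Fibroblast markers, 0 of 8 of them called by limma, had a median difference of -0.36. Their sum was 3407.5, 5031.7, 3644.5 and 6964.6 in edKO replicates 5, 6, 15 and 33, against 5821.9, 5558.3 and 7052 in WT replicates 1, 2 and 28. Thus edKO replicates 5, 6 and 15 lay below every WT heart and replicate 33 did not. Leukocyte markers, 0 of 8 called, summed to 89.9 to 123 in edKO hearts and 104 to 112 in WT hearts. The part of these cells in the Slc16a3 difference was not tested. Slc16a3 was no longer called without any 1 of the WT hearts or edKO replicate 5, 6 or 15 (adjusted p up to 0.171). It was called by edgeR and DESeq2 (adjusted p = 0.0492 and 0.00738) and not by voom (adjusted p = 0.0645). With Xist as a covariate it was not called either (limma adjusted p = 0.0785), at a difference of -0.68.

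The glycerol phosphate genes, which pass cytosolic reducing equivalents to mitochondria and supply the backbone of triglycerides, did not pass (0 of 3 by limma, edgeR, DESeq2 and voom, 1 at an unadjusted p under 0.05). Gpd1, the cytosolic dehydrogenase, had 11.8, 11.9, 8.89 and 11.1 in edKO replicates 5, 6, 15 and 33, against 14.6, 12.2 and 17.4 in WT replicates 1, 2 and 28. All edKO hearts lay below the lowest WT heart by a small margin (difference -0.40, 95% interval -0.74 to -0.05, limma adjusted p = 0.196). Gpd2, the mitochondrial enzyme, stood at 15.5 ± 2.01 in edKO and 17.9 ± 0.303 in WT hearts, also without overlap, and Gpd1l, known from inherited arrhythmia in humans, at 45.1 ± 7.31 in edKO and 41.5 ± 6.98 in WT hearts.

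**Figure D4:**
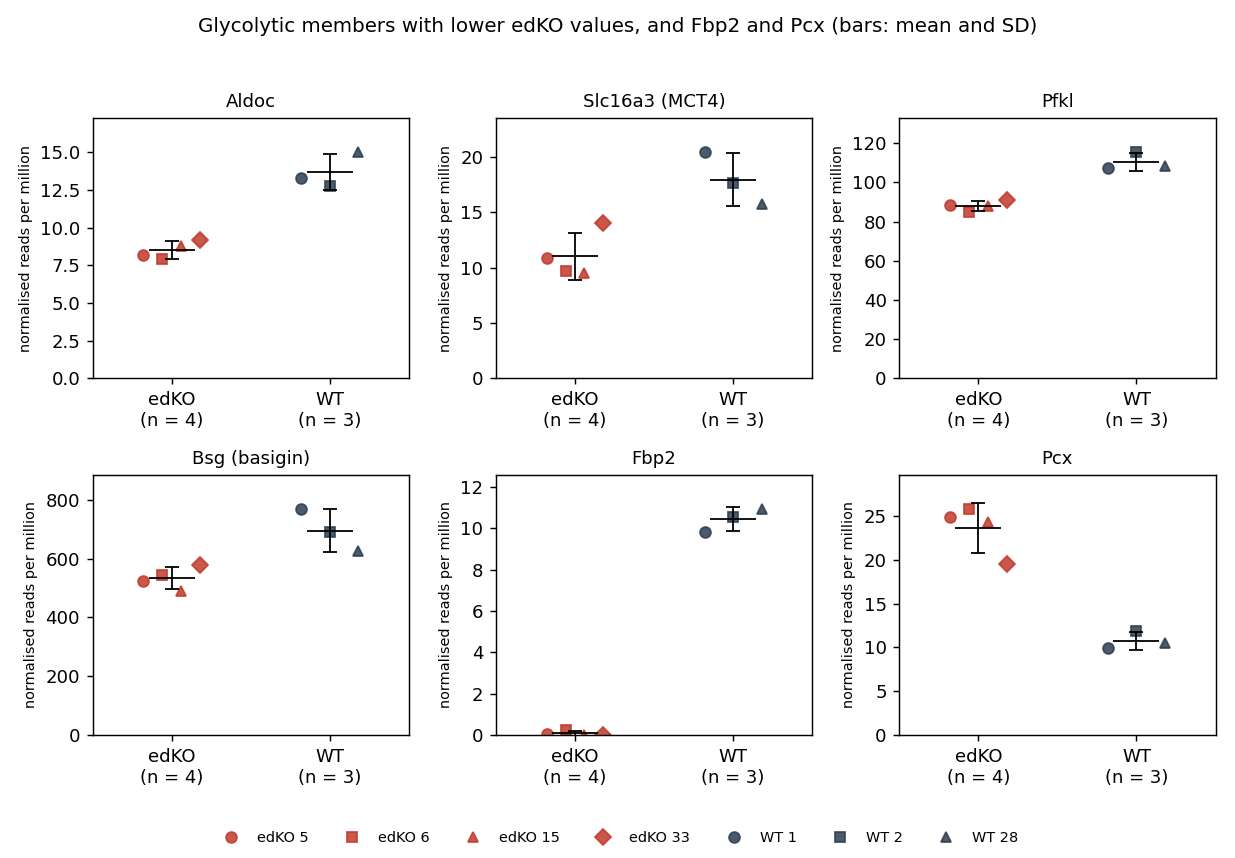
Normalised reads per 1000000 in each heart for Aldoc, Slc16a3, Pfkl and Bsg, and for the opposing enzyme genes Fbp2 and Pcx, edKO on the left and WT on the right of each panel, with mean and SD. In all 6 panels the groups do not overlap. Fbp2 lies near 0 in every edKO heart and near 10 in WT hearts, and Pcx is the gene of the panel that is higher in edKO hearts.

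Genes around the pathway were read from 9 further lists. Of the 110 listed symbols 91 matched the table, and of these 6 were higher, 2 lower and 83 did not pass (limma, beside the 4.21% of all genes). The steepest change among them was at the step that reverses phosphofructokinase. Fbp2 (ENSMUSG00000021456, chromosome 13, 62836877 to 62858422), the muscle fructose 1,6-bisphosphatase, had 0, 4, 0 and 0 reads in edKO replicates 5, 6, 15 and 33, against 127, 153 and 150 reads in WT replicates 1, 2 and 28. It was at or close to nothing in each edKO heart and detected in every WT heart. In normalised reads per 1000000 it averaged 0.0913 ± 0.120 in edKO and 10.4 ± 0.569 in WT hearts, where every value includes the 0.5 read that the scaling adds. The ratio of pooled reads, WT over edKO and scaled by library size, was 181 (exact 95% interval 70.0 to 666, for counting error only). The difference on the log2(value + 1) scale, which understates it, was -3.40 (limma adjusted p = 1.74e-06), and it was called in all 7 fits that left out 1 heart.

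Pcx, pyruvate carboxylase, which turns pyruvate into oxaloacetate, had 24.9, 25.8, 24.3 and 19.5 in edKO replicates 5, 6, 15 and 33, against 9.90, 11.9 and 10.5 in WT replicates 1, 2 and 28. It rose 2.09-fold on the log2(value + 1) scale (limma adjusted p = 0.00121), again in all 7 of those fits. The other gluconeogenic genes measured, Pck2 and G6pc3, did not pass, and Fbp1 and Pck1 were not analysed here. Of 14 genes of mitochondrial pyruvate entry, Pdk4, a kinase that switches off pyruvate dehydrogenase, fell 3.77-fold on the log2(value + 1) scale. Its values were 87.3 ± 39.5 in edKO and 305 ± 30.9 in WT hearts (limma adjusted p = 0.00536). Pdp2, a phosphatase that switches the complex on, rose 1.76-fold on that scale, which understates the change of so low a gene. Its values were 5.18 ± 0.8294 in edKO and 2.53 ± 0.694 in WT hearts (limma adjusted p = 0.0440), a call lost in 6 of the 7 fits.

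Among 15 genes of insulin signalling and GLUT4 traffic, the insulin receptor gene Insr was higher, at 192 ± 27.9 in edKO and 127 ± 14.5 in WT hearts (limma adjusted p = 0.0277), and 14 did not pass. Without edKO replicate 33, Irs1, Irs2, Akt2 and Lnpep were also called, and the 91 genes then held 16 calls, 14 of them higher, while calls over all genes also went up, to 1177 (8.54% of all genes). Among 15 transcription factors and coactivators with roles in glucose genes, 3 were higher. Klf15, which activates the Slc2a4 promoter, stood at 50.2 ± 21.6 in edKO and 16.3 ± 1.56 in WT hearts, Mlxip, a glucose-sensing factor that drives Txnip, at 39.2 ± 6.04 in edKO and 26.1 ± 1.52 in WT hearts, and Ppargc1a, a coactivator of mitochondrial genes, at 130 ± 18.8 in edKO and 88.2 ± 11.8 in WT hearts (adjusted p = 0.0189, 0.0340 and 0.0421). Hif1a, the oxygen-regulated activator of glycolytic genes, stood at 169 ± 18.1 in edKO and 152 ± 8.37 in WT hearts and did not pass. Insr and Ppargc1a were called in 1 of the 7 fits that left out a heart, Mlxip in 2 and Klf15 in 3.

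The side branches gave no call by limma. All 8 genes of the pentose phosphate pathway had negative differences (-0.30 to -0.08, 0 called, 2 at an unadjusted p under 0.05), as did 6989 of all 13788 genes. The 8 were read in the same hearts, so their signs are not independent. Taldo1 stood at 99.8 ± 8.16 in edKO and 112 ± 10.9 in WT hearts, and Pgd at 49.4 ± 4.25 in edKO and 54.9 ± 0.666 in WT hearts. Of 9 hexosamine and polyol genes, Sord stood at 159 ± 24.0 in edKO and 135 ± 13.3 in WT hearts and Ogt at 142 ± 49.6 in edKO and 88.6 ± 12.7 in WT hearts (0 called, 1 at an unadjusted p under 0.05). Of 7 genes of the malate-aspartate shuttle, Mdh1 stood at 1436 ± 82.0 in edKO and 1446 ± 104 in WT hearts and Mdh2 at 939 ± 19.2 in edKO and 1036 ± 61.3 in WT hearts (0 called, 1 at an unadjusted p under 0.05). The 15 further genes of glycolysis and hexose transport held 0 calls and 0 at an unadjusted p under 0.05, with Bpgm, which makes 2,3-bisphosphoglycerate in red cells, at 149 ± 26.1 in edKO and 137 ± 34.3 in WT hearts.

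The hearts also differed among themselves within each genotype group. Of the 8 genes of the payoff phase, edKO replicate 33 was the highest edKO heart for 7 and WT replicate 1 the highest WT heart for 6, while WT replicate 28 was the lowest WT heart for 7. Of the 4 genes of the lactate step, WT replicate 1 was highest and WT replicate 28 lowest among WT hearts for all 4. Over the 33 genes edKO replicate 33, the library with the most reads, was the highest edKO heart for 18 and the lowest for 7. Such counts were not made over all genes, so they do not mark a trait of this pathway. Without it 5 of the 33 genes were called, 1 higher and 4 lower, Bsg being the addition, against 8.54% of all genes in the same fit. What sets these hearts apart is not given by the labels, and its part in the results was not tested.

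**Figure D5:**
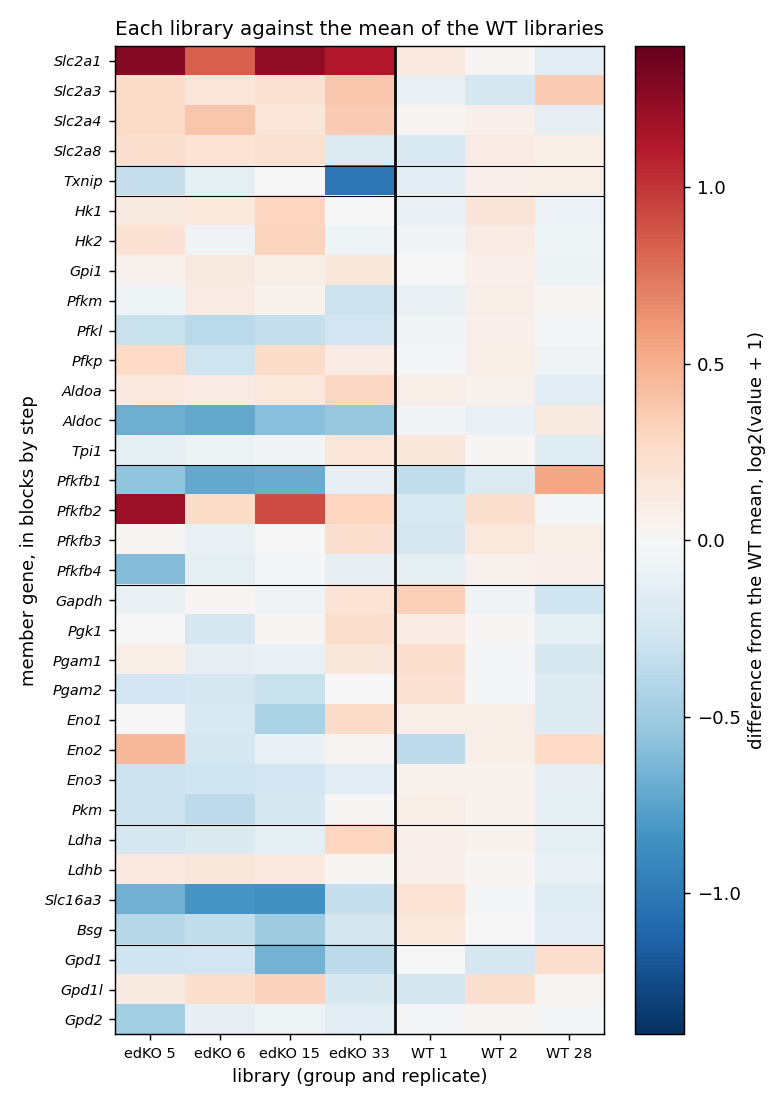
Difference of each heart from the mean of the WT hearts, on the log2(value + 1) scale (colour), for the 33 genes in blocks by step (rows) and the 7 hearts (columns, edKO left of the line and WT right of it). Slc2a1 is red in all 4 edKO hearts, Aldoc, Slc16a3, Pfkl and Bsg are blue in all 4, and edKO replicate 33 differs from the other edKO hearts at Txnip and Ldha.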

How the data were processed

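Per the labels' protocols, total RNA of whole hearts was amplified from 1 to 10 ng with the Ovation system and read as 61-nt single reads. Cutadapt, limma, RSEM 1.3.1 and the build GRCm38 are listed, per the submitters' processing notes, without roles or an annotation release. Each deposited signal value is a read count with 0.5 added, scaled to 1000000 reads of effective library size; undoing this returned whole reads for 100% of 96516 values (tolerance 1e-06). Because this scaling sets libraries to a common level, a shift shared by most transcripts would not be seen.

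Differences were tested with limma 3.58.1 in R 4.3.3, taking log2(value + 1), a variance trend and no covariate, 2-sided, adjusted by Benjamini-Hochberg over 13788 genes, called at 0.05. Alternatives were pseudocounts of 0.1 and 5, filters, variance models, library weights, other normalisations, Xist as a covariate, a 1.5-fold minimum, leaving out each heart, and edgeR 4.0.16, DESeq2 1.42.0 and voom on the recovered reads. Fits were tested on simulated data. The 3 isoform ratios were tested by exact permutation. No adjusted p was computed over a list alone. No 2 libraries agreed within sampling noise (chi-square per degree of freedom 9.06 to 56.0). Positions and lengths come from GENCODE M21, and promoter sequences from RefSeq. Per-kilobase levels use the longest principal transcript, and the union of exons was tried after seeing the data. Python 3.11.15 was used for tables. The members, lists and cell markers were chosen with earlier results of these data known. All 33 members are given, with values per heart for those that passed and for the isoform pairs. From the other lists up to 4 called genes were named, or the 2 most abundant where 0 passed. Further genes were named after their values were seen. The test results of single erythroid markers are not reported here.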

Additional observations from a re-analysis of the deposited data

Results flagged for a closer look

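In 36 sets of 4 edKO values (33 genes and 3 ratios), the heart farthest from the others was tested with Dixon's 95% limit on its gap, which chance passes in about 1 set of 20. It was passed by 3 genes, each time through edKO replicate 33. Slc2a8 was low there, at 14.2 normalised reads per 1000000, against 18.8 to 19.3 in the other edKO hearts. Aldoa was high there, at 2249 (2000 to 2042 in the others), and Eno3 at 863 (785 to 798 in the others).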

How the results depend on the processing

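No paired analysis was possible because the groups share no replicate number. Of the 33 genes 4 were called, against 1 with Xist as a covariate, 2 without a variance trend, 2 by voom and 1 to 5 on leaving out a heart. Of the 91 other glucose genes 8 were called, against 4 with Xist as a covariate, 14 with library weights, 4 without a trend, 4 by voom, 5 with a 1.5-fold minimum and 3 to 16 on leaving out a heart, the 16 coming without edKO replicate 33. Of all genes 580 were called, against 1052 by DESeq2, 364 with Xist, 1284 with library weights, 370 without a trend and 222 to 1177 on leaving out a heart. The cause was not tested. The differences of the 3 isoform ratios moved by less than their spread between replicates under both other pseudocounts and on leaving out a heart. Of the 4 called genes, Slc2a1 alone was called in each alternative run. Genes that changed sign were uncalled throughout and lay near 0: Tpi1 was at 0.014 after quantile normalisation, Gapdh at -0.015 and Pgam1 at -0.022 with Xist, and Pgk1 at -0.0047, Eno2 at -0.048 and Pfkfb3 at -0.049 with library weights. On leaving out a heart Pfkm ranged from -0.11 to 0.034, Tpi1 from -0.11 to 0.059, Gapdh from -0.12 to 0.18, Pgk1 from -0.060 to 0.093, Pgam1 from -0.098 to 0.13, Eno1 from -0.22 to 0.020, Eno2 from -0.15 to 0.18, Pfkfb3 from -0.082 to 0.11 and Gpd1l from -0.012 to 0.23. Depth limits Fbp2 in edKO hearts and the 20 to 92 reads of Pfkfb1 and Pfkfb4.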
